A study of Mus musculus with 8 samples.

Results

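The genes described here are 9 that carry or answer signals of growth hormone and prolactin: the receptors Prlr and Ghr, the transcription factors Stat5a and Stat5b, the feedback inhibitors Cish and Socs2, the serotonin-forming enzymes Tph1 and Tph2, and the growth factor Igf1. They were chosen by name, and all 9 stand among the 24469 genes of both deposited tables. RNA was sequenced from hand-picked pancreatic islets of mice aged 8 weeks. The groups are 4 wild-type C57BL/6 mice and 4 mice on a C57BL/6 background that carry a loss of function of the snoRNAs U32a, U33, U34 and U35a encoded in Rpl13a. The labels give no treatment, sex or pregnancy state, and no more on how the allele was made. The comparison asks which islet transcripts differ when these snoRNAs are missing.

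Growth hormone and prolactin bind related receptors of the cytokine receptor family that have no enzyme activity of their own. The bound receptor activates the kinase JAK2, which phosphorylates STAT5A and STAT5B, and these dimers enter the nucleus and bind DNA. Among the genes they switch on are Cish and Socs2, whose proteins dampen the same receptors. In the beta cells of pregnant mice this route raises Tph1 and Tph2, serotonin accumulates, and beta-cell mass grows. In liver, growth hormone acts through the same factors to raise Igf1.

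STAT5 dimers bind a palindrome whose core is TTCNNNGAA. The stretches below are shown because they are the only ones among the members' listed promoters with this core. They are given 5′ to 3′ from RefSeq on GRCm38.p6, plus strand, with the matches in capitals. The first lies at the listed start of Cish (chr9:107296655-107296682), with matches that begin at the first transcribed base and at base 12, inside the first exon of a longer Cish transcript in GENCODE. The second lies before the middle one of 3 listed starts of Prlr (chr15:10223766-10223834), with a match that begins 110 bases before that start, in no annotated exon.
Cish: agttTTCCTGGAAagTTCTTGGAAatct
Prlr: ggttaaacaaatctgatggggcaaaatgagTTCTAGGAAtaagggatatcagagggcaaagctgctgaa
The search covered 300 bases around each start, and the palindrome reads alike on both strands. A match was present in 2 of the 14 listed promoters of 8 members, Socs2 not among them, and in 8.3% of all 32851 promoters. Cish held 2 matches, and 0.457% of all promoters held at least that many. A match describes letters and not binding.

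In units of 1000000 counts, the depth ranged from 21.2 to 41.1 per library. The targeted snoRNAs had 15 counts in wild type in all and 0 in the knockout, where a count of 0 allows up to 3 counts per library. Levels are given in CPM, counts per 1000000 of the TMM-scaled library size and not of the plain total. Exocrine RNA varied within both genotypes: the summed level of 20 acinar markers ran from 8724 to 190700 CPM in wild type and from 20470 to 185700 CPM in knockout. As a share of all counts these markers held 1.17 to 14.21% in wild type and 2.69 to 13.02% in knockout. Knockout replicate 2 stood far apart in hepatocyte RNA, with 6347 CPM over 20 hepatocyte markers and none of them at 0. It is called the library with hepatocyte RNA below. The sum was 15.7 to 18.3 CPM in wild type and 22.1 to 24.5 CPM in the other knockout libraries, with 4 to 7 markers at 0 in these libraries. Wild-type replicate 4 and knockout replicates 1 and 4 had 20935, 11458 and 20491 counts of Xist, the RNA of the inactive X chromosome, and the other 5 libraries 51 to 158.

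None of the members reached FDR 0.05 by the quasi-likelihood test of edgeR, in which 0.0147% of the 13617 genes tested passed. Of the 8 members tested, 3 had an unadjusted p under 0.05, where 18.7% of all genes did: Ghr leaned higher in the knockout, and Stat5a and Stat5b leaned lower. Both figures depended on the scaling. With no TMM factor in the library sizes, 721 of the 13617 genes had such a p. The unadjusted edgeR p was then 0.354 for Ghr, 0.146 for Stat5a and 0.182 for Stat5b. The genotypes overlapped for all 8 members tested, and for 8.34% of all genes they did not. Of these 8, 6 had a negative and 2 a positive log2 fold change, with a median of -0.21 beside 0.0098 over all genes tested. Tph1 had too few counts for the fit.

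**Figure D1:**
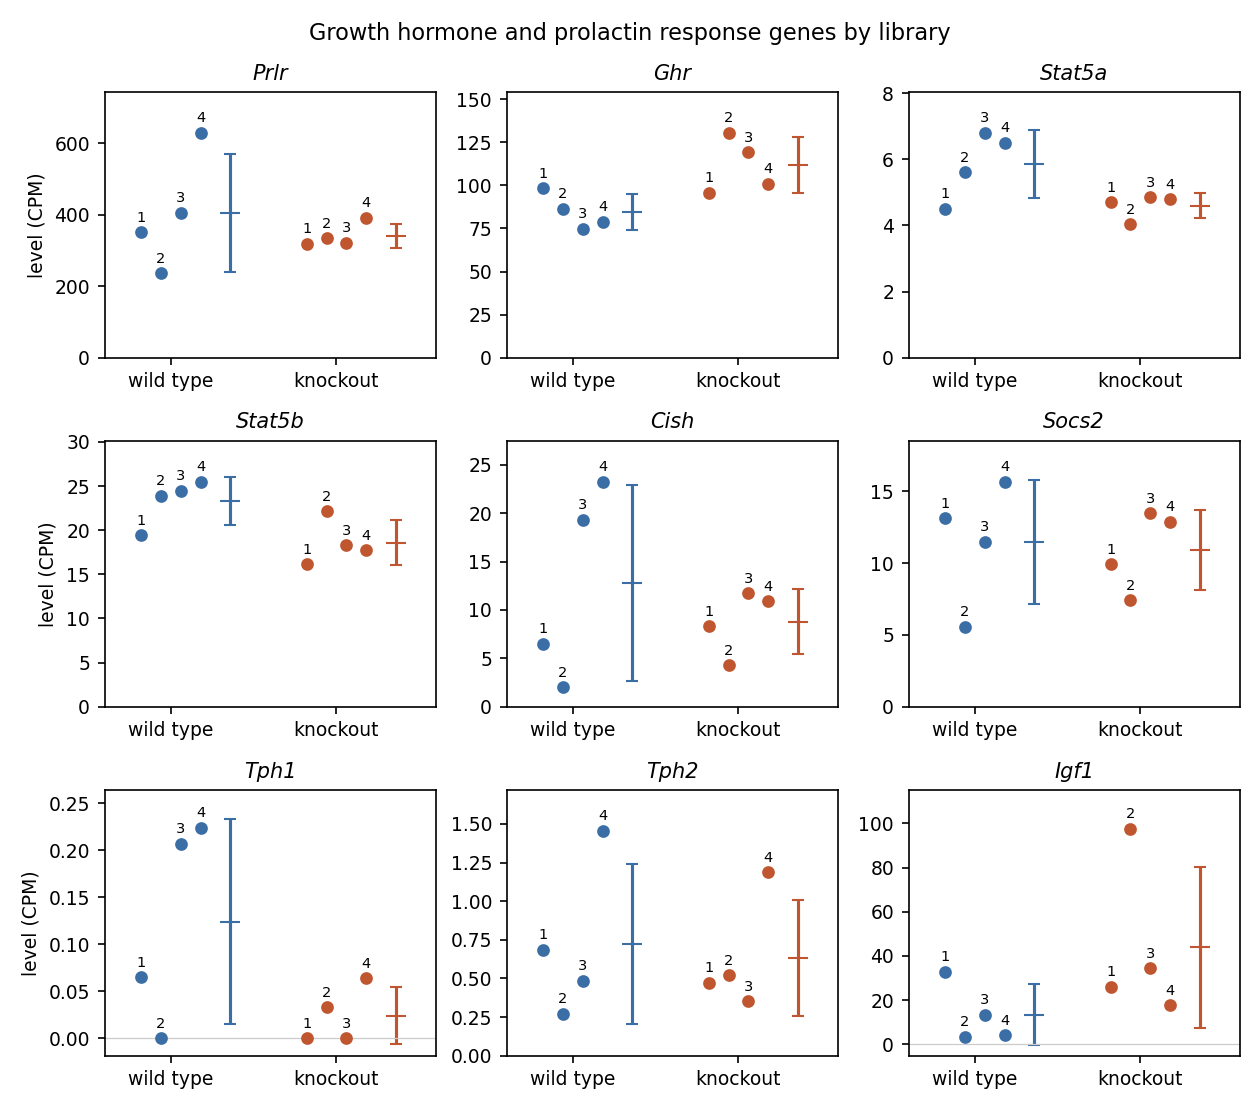
Level in CPM of each of the 9 genes by genotype; each point is 1 library with its replicate number, and the bar beside the points is the mean with its SD (n = 4). Wild-type replicate 4 is the highest library for Prlr, Cish, Socs2, Tph1, Tph2 and Stat5b, and knockout replicate 2 for Igf1 and Ghr.

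The ligands themselves were not seen. Gh, Prl and the placental lactogen genes Prl3b1, Prl3d1, Prl3d2 and Prl3d3 had 0 counts in all 8 libraries, which allows up to 0.084 to 0.177 CPM in a library. Prl2c2, a proliferin gene of the prolactin family, had 2 counts in the knockout and none in wild type.

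Prlr, the prolactin receptor, was the most abundant member per length. Divided by annotated exon length, its wild-type level was 26.5 ± 10.8 CPM per kb (SD, n = 4), followed by Ghr at 9.35 ± 1.15 and Stat5b at 4.21 ± 0.49. These 3 did not overlap in wild type. Cish (1.99 ± 1.58), Igf1 (1.35 ± 1.38), Socs2 (1.2 ± 0.45) and Stat5a (0.82 ± 0.15) followed within each other's spread, then Tph2 at 0.252 ± 0.180 and Tph1 at 0.020 ± 0.018 CPM per kb. With the longest transcript as the length, Socs2 stood before Igf1 and the order was otherwise the same.

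Prlr was measured at 351, 236, 406 and 630.4 CPM in wild-type replicates 1 to 4 and at 319.5, 334, 322 and 392 CPM in knockout replicates 1 to 4. The wild-type libraries thus enclosed the knockout libraries on both sides. The group means of 406 ± 166 and 342 ± 33.8 CPM gave a log2 fold change of -0.25 ± 0.25 (SE), with a 95% interval of -0.82 to 0.33 and an edgeR adjusted p of 0.615. Leaving out wild-type replicate 4 turned the value to 0.046, and leaving out replicate 2 gave -0.44 (edgeR adjusted p = 0.344). The summed level of 10 beta-cell markers was 134600 to 183800 CPM in wild type and 105700 to 134400 CPM in knockout. Ins1 and Ins2 held most of this sum, with wild-type means of 42520 and 115400 CPM and knockout means of 32730 and 77170 CPM. Of the 10 markers 9 had negative and 1 a positive log2 fold change, and none passed FDR 0.05. The part of these markers in the Prlr values was not tested.

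Ghr, the growth hormone receptor, was at 98.5, 86.4, 74.9 and 78.9 CPM in wild type and at 95.8, 131, 119 and 101 CPM in knockout. Knockout replicate 1 lay below wild-type replicate 1, and the other 3 knockout libraries lay above every wild-type library. The log2 fold change was 0.40 ± 0.13 (SE, 95% interval 0.12 to 0.68), with an unadjusted p of 0.00861 and an edgeR adjusted p of 0.171. Without wild-type replicate 1 the value was 0.46 and passed (edgeR adjusted p = 0.0393), in a fit in which 9.46% of 13874 genes passed, and 2 of the 8 members tested were among them. Knockout replicate 2, the highest, is the library with hepatocyte RNA. Without it the value was 0.31 (edgeR adjusted p = 0.274).

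Stat5a and Stat5b, neighbouring genes for near-identical proteins, shared reads in the authors' counting. Their estimated counts were fractions in every library, while the sum of both lay within 0.005 of a whole number. Stat5a took 15.5 to 22.7% of that sum, a split that depends on the counting and is uncertain. Stat5a was at 4.50, 5.60, 6.81 and 6.50 CPM in wild type and at 4.71, 4.04, 4.86 and 4.79 CPM in knockout. Stat5b was at 19.4, 23.9, 24.5 and 25.5 CPM and at 16.2, 22.1, 18.3 and 17.8 CPM. For Stat5a wild-type replicate 1 was inside the knockout range and the other 3 wild-type libraries were above it. For Stat5b knockout replicate 2 lay above wild-type replicate 1, and the other 3 knockout libraries lay below all of wild type. The log2 fold changes were -0.35 ± 0.15 (SE, edgeR adjusted p = 0.252) and -0.32 ± 0.12 (edgeR adjusted p = 0.209).

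Both STAT5 genes counted as 1 feature avoid the split. The sum averaged 29.2 ± 3.67 CPM in wild type against 23.2 ± 2.21 CPM in the knockout (SD, n = 4), or -0.33 ± 0.11 on the log2 scale (SE, adjusted p from edgeR = 0.189). Without wild-type replicate 1 Stat5b was at -0.42 and passed (edgeR adjusted p = 0.0413), and Stat5a at -0.47 did not (0.0536). That fit passed 9.46% of 13874 genes. In the 5 libraries with low Xist alone, the Stat5b value was -0.16.

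**Figure D2:**
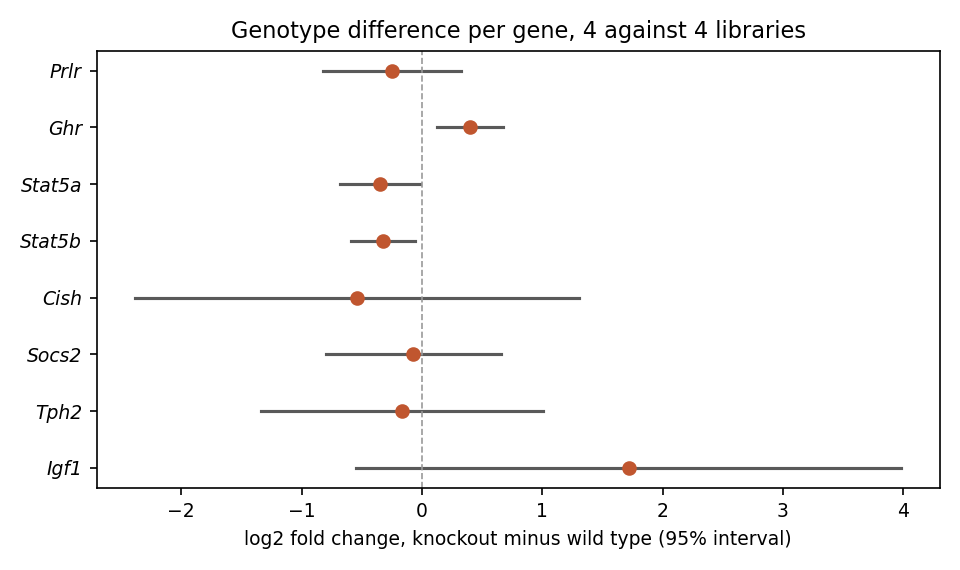
Log2 fold change, knockout minus wild type, of the 8 members tested (points) with 95% intervals (lines) from edgeR's fit of 4 against 4 libraries. The intervals of Ghr, Stat5a and Stat5b lie on 1 side of 0, and those of Cish and Igf1 are the widest.

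Cish encodes CIS, an SH2 protein that binds activated cytokine receptors and blocks STAT5 docking; its start is printed above. It was at 6.49, 1.99, 19.3 and 23.3 CPM in wild type and at 8.29, 4.27, 11.7 and 10.9 CPM in knockout. The lowest and the highest libraries were both wild type and differed 11.7-fold, against 2.74-fold within the knockout. The log2 fold change was -0.54 ± 0.76 (SE, 95% interval -2.39 to 1.30, edgeR adjusted p = 0.730). Leaving out wild-type replicate 4 moved it to -0.074, replicate 3 to -0.29 and replicate 2 to -0.90, and leaving out knockout replicate 2 moved it to -0.31.

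Socs2, the inhibitor that restrains growth hormone receptor signalling and body growth, was at 13.1, 5.57, 11.5 and 15.7 CPM in wild type and at 9.94, 7.43, 13.5 and 12.9 CPM in knockout. The knockout libraries all lay inside the wild-type range. The log2 fold change was -0.070 ± 0.32 (SE, 95% interval -0.80 to 0.66, edgeR adjusted p = 0.920). Its sign turned when wild-type replicate 4 (0.12) or knockout replicate 2 (0.080) was left out, and with wild-type replicate 2 left out the value was -0.30.

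Tph1 and Tph2 encode tryptophan hydroxylases, the rate-limiting enzymes of serotonin synthesis. Tph1, the form that prolactin raises most in islets, had 2, 0, 6 and 8 counts in wild type and 0, 1, 0 and 2 counts in knockout. Reads were thus present in 3 wild-type and 2 knockout libraries, and wild-type replicates 3 and 4 held 14 of the 19 counts. The scaled wild-type to knockout ratio was 4.21, and its exact 95% counting interval reached from 1.21 to 22.5. That interval pools the reads of each genotype, leaves out differences between libraries and treats amplified reads as independent, so it is no test of genotype. Between libraries the genotypes overlapped (two-sided exact permutation p = 0.171, where 0.0286 is the smallest that 70 splits allow). Without wild-type replicate 4 the counts were 8 and 3. Tph1 lies on chromosome 7, as Rpl13a does, with 40 tested genes between them in the RefSeq order of GRCm38.p6, so genotype and sequence linked to the targeted allele cannot be told apart for this gene.

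Tph2, the form best known from neurons, had 21, 9, 14 and 52 counts in wild type and 8, 16, 8 and 37 counts in knockout. Scaled, wild type spanned 0.271 to 1.46 CPM and the knockout 0.353 to 1.19 CPM. Replicate 4 of each genotype was the highest, and both are libraries with high Xist; the third such library, knockout replicate 1, was at 0.471 CPM. The genotypes differed by -0.16 ± 0.53 on the log2 scale (SE, adjusted p from edgeR = 0.885), with 0.44 when wild-type replicate 4 was left out, 0.016 when knockout replicate 3 was and -0.69 when knockout replicate 4 was. With Xist class as a covariate it was -0.39 (edgeR adjusted p = 0.620). In the 5 libraries with low Xist alone it was -0.11 (0.959). The sex of the mice is not in the labels.

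The receptor and the response genes spread widely among the wild-type libraries. In wild-type libraries the coefficient of variation was 40.8% for Prlr, 37.4% for Socs2, 79.5% for Cish and 71.4% for Tph2, where the median over all genes tested was 16.0%. For Stat5a, Stat5b and Ghr it was 17.7, 11.6 and 12.3%, and Igf1 had the widest spread of the members tested, with 102% in wild type and 82.9% in knockout. In the knockout Prlr, Socs2, Cish and Tph2 had 9.87, 25.6, 38.1 and 59.5%, beside a median of 14.45%. Wild-type replicate 2 was the lowest library for Prlr, Cish, Socs2 and Tph2, and wild-type replicate 4 the highest for all 4.

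Across libraries, 6 pairs were tested with exact two-sided permutation tests on log2 CPM, adjusted over the 6. Cish and Socs2 had a Pearson r of 0.87 (n = 8, exact p = 0.00486, adjusted p = 0.0146) and a Spearman rho of 0.76 (exact p = 0.0368, adjusted p = 0.0688). Prlr and Cish had r = 0.84 (exact p = 0.00960, adjusted p = 0.0192) and rho = 0.74 (exact p = 0.0458, adjusted p = 0.0688). Prlr and Socs2 had r = 0.77 (exact p = 0.0264, adjusted p = 0.0317) and rho = 0.62 (exact p = 0.115, adjusted p = 0.138). Without wild-type replicates 2 and 4, the libraries farthest from the median, these 3 values of r were 0.60, 0.58 and 0.30 (exact p = 0.232, 0.233 and 0.606), and none of the 3 passed. The relations of Prlr with Cish and Socs2 rest on those 2 libraries, while Cish and Socs2 also ran together in the 4 knockout libraries, as given next.

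Prlr and Tph1 had r = 0.85 (exact p = 0.000298, adjusted p = 0.00179) and rho = 0.95 (exact p = 0.00149, adjusted p = 0.00893), and r = 0.91 without the same 2 libraries (exact p = 0.00556). This relation rests on 19 counts of Tph1 in all. Cish and Tph1 had r = 0.71 (exact p = 0.0469, adjusted p = 0.0469) and rho = 0.59 (exact p = 0.139, adjusted p = 0.139), with r = 0.51 without those 2 libraries (exact p = 0.308). With every value set relative to its genotype mean, r was 0.86 for Prlr and Cish, 0.78 for Prlr and Socs2, 0.90 for Prlr and Tph1, 0.87 for Cish and Socs2 and 0.83 for Cish and Tph1. In wild type alone r was 0.86 to 1.00 for these 5 pairs. In knockout alone it was 0.98 for Cish and Socs2 and 0.93 for Prlr and Tph1, but 0.24 for Prlr and Cish, 0.32 for Prlr and Socs2 and -0.13 for Cish and Tph1, over 4 libraries each and with no test. Single libraries decided the calls. Without wild-type replicate 4 the adjusted p of all 6 pairs was 0.0629 to 0.164 (exact tests, n = 7). Without wild-type replicate 2 it was 0.0917 to 0.185 for the 4 of them other than Prlr and Tph1 and Ghr and Igf1, and without knockout replicate 2 it was 0.0627 to 0.0937 for all but Prlr and Tph1 (exact tests, n = 7). Cish and Tph1 also missed 0.05 without wild-type replicate 1 or 3 or knockout replicate 4, and Prlr and Socs2 without knockout replicate 4 (0.0502, exact test). What set wild-type replicates 2 and 4 apart was not tested. Their acinar sums were 8724 and 23760 CPM, the lowest of wild type. Replicate 4 was also the only wild-type library with high Xist, at 20935 counts against 158 in replicate 2.

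**Figure D3:**
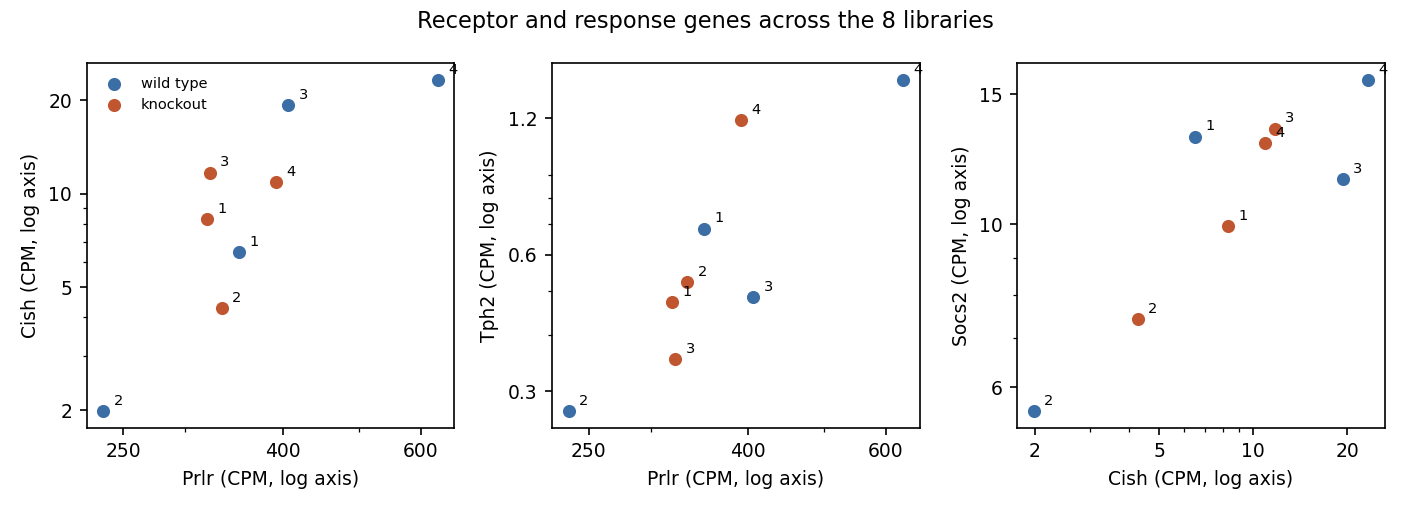
Levels in CPM on log axes of Cish against Prlr, Tph2 against Prlr and Socs2 against Cish; each point is 1 library with its replicate number, coloured by genotype. Wild-type replicates 2 and 4 mark the low and the high end in each panel, with the other libraries between them.

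Igf1 encodes insulin-like growth factor 1, which liver secretes in answer to growth hormone and many other tissues make locally. It was at 32.8, 3.49, 13.4 and 4.01 CPM in wild type and at 26, 97.5, 34.5 and 17.6 CPM in knockout. Knockout replicate 2 was the highest library and 27.9-fold above wild-type replicate 2, the lowest. The log2 fold change was 1.72 ± 0.94 (SE, 95% interval -0.55 to 3.98, edgeR adjusted p = 0.359). Leaving out knockout replicate 2 gave 0.96, and leaving out wild-type replicate 1 gave 2.66.

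Among the other 7 libraries Igf1 followed exocrine RNA. Both this relation and the leaving out of knockout replicate 2 were chosen after the values were seen. The p-values below do not account for that choice. Per 1000 CPM of the summed acinar markers, Igf1 was at 0.155 to 0.186 CPM in wild-type replicates 1, 3 and 4 and knockout replicates 1 and 3. It was at 0.209 CPM in knockout replicate 4, at 0.40 CPM in wild-type replicate 2 and at 4.76 CPM in knockout replicate 2. All 20 acinar markers had counts in every library. Across the 7 libraries without knockout replicate 2, Pearson r was 0.97 (exact permutation p = 0.000794, adjusted over the 2 sets of libraries p = 0.00159) and Spearman rho 0.93 (exact p = 0.00675). Without the 2 libraries farthest from the median r was 0.96 over 5 libraries. With knockout replicate 2 r was 0.48 (n = 8, exact p = 0.225, adjusted p = 0.225) and rho 0.45 (exact p = 0.267). Of these 8, the 2 libraries farthest from the median acinar sum were wild-type replicate 2 and knockout replicate 2 itself. Without those 2, r was 0.99 over 6 libraries, which again leaves out knockout replicate 2. With a term for the acinar share over all 8 libraries, the genotype difference of Igf1 was 1.90 on the log2 scale (edgeR adjusted p = 0.420), and with a term for the hepatocyte share it was 0.97 (0.633). The hepatocyte share was 0.835% of counts in knockout replicate 2 and at most 0.0027% in any other library. That term thus rests mainly on 1 library and is no separate check beside leaving it out, which gave 0.96. In a fit with the acinar term and knockout replicate 2 left out, the genotype difference of Igf1 was 0.22 on the log2 scale (edgeR adjusted p = 0.797).

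**Figure D4:**
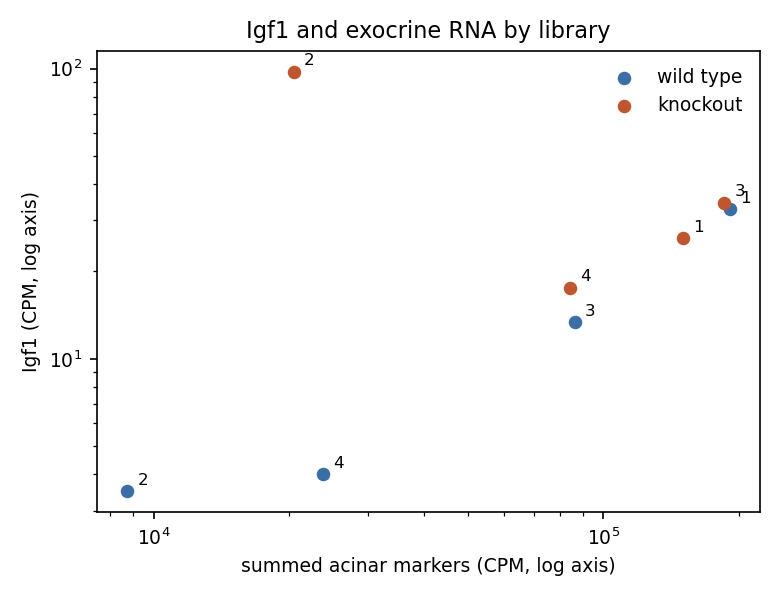
Igf1 against the summed level of 20 acinar markers, both in CPM on log axes; each point is 1 library with its replicate number. In 7 libraries Igf1 rises with the acinar sum from 3.49 to 34.5 CPM, and knockout replicate 2, the library with hepatocyte RNA, stands above them at 97.5 CPM.

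Markers of other cell types are given beside Igf1, and their part in its values was not tested. The summed level of 10 macrophage markers was 18.4 to 28.2 CPM in wild type and 16.6 to 36.0 CPM in knockout, and that of 10 fibroblast, stellate and pericyte markers 161 to 193 CPM and 160.1 to 335 CPM. The 8 adipocyte markers summed to 2.17 to 5.09 CPM in wild type and 5.76 to 180.2 CPM in knockout, with the highest sum in knockout replicate 2, also the highest library for Igf1. Of that sum Car3, which liver and muscle also make, held 174 CPM, against 0 to 0.176 CPM in the other libraries. Fabp4 was at 2.08 to 4.99 CPM in wild type and 5.41 to 13.5 CPM in knockout, and held most of the sum in every library but knockout replicate 2. Its genotypes did not overlap, as was so for 8.34% of all genes tested. Adipoq, Plin1 and Cfd were at 0 in all libraries, so outside knockout replicate 2 the sum is mostly that of a single gene. In bulk RNA, fewer cells of a type and less RNA per cell cannot be told apart.

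Ghr and Igf1 had a Pearson r of 0.81 (n = 8, exact p = 0.0170, adjusted p = 0.0255) and a Spearman rho of 0.83 (exact p = 0.0154, adjusted p = 0.0461). Without knockout replicate 2 and wild-type replicate 3 r was 0.84 (exact p = 0.0292). Relative to the genotype means r was 0.64 (exact p = 0.0981, adjusted p = 0.0981), and without knockout replicate 2 alone it was 0.69 (exact p = 0.0937, adjusted p = 0.0937).

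The other genes of the pathway came from lists, and none of their 110 tested entries passed FDR 0.05 in edgeR's test. Of 21 kinases, other STATs and adaptors, 10 had positive and 11 negative values with a median of -0.028. Tyk2, a JAK-family kinase, differed by -0.48 ± 0.17 on the log2 scale (SE, adjusted p from edgeR = 0.194) and Sh2b1, an adaptor that enhances JAK2 activity, by -0.35 ± 0.14 (0.230). Of 19 negative regulators tested, 10 were positive, with a median of 0.014. Pias4, a SUMO ligase that restrains STAT proteins, was at 5.22, 5.78, 6.15 and 5.99 CPM in wild type and at 3.59, 4.01, 3.09 and 3.44 CPM in knockout. All knockout libraries lay below all wild-type libraries, where 8.34% of all genes tested had genotypes that did not overlap. The log2 difference was -0.71 ± 0.13 (SE, edgeR adjusted p = 0.116). Socs3, an inhibitor induced by STAT3, had -0.99 ± 0.34 (0.199). Without wild-type replicate 1, Tyk2, Pias4 and Socs3 passed (edgeR adjusted p = 0.0373, 0.0132 and 0.0291), in a fit in which 9.46% of 13874 genes passed. Pias4 and Socs3 also passed with all 8 libraries in DESeq2 (adjusted p = 0.00258 and 0.0479) and in limma-voom with library weights (0.0404 and 0.0481). Of all genes, 526 of 9932 passed in DESeq2 and 549 of 13617 in limma-voom with library weights.

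Other cytokine receptors had 11 positive values of 14 and a median of 0.12. Osmr, the oncostatin M receptor, had a log2 value of 0.71 ± 0.19 (SE, adjusted p from edgeR = 0.145) and Ifnar2, an interferon receptor chain, one of 0.45 ± 0.14 (0.163). Of 12 genes described as STAT5 targets elsewhere, 7 were positive, with a median of 0.14. Pim3, a survival kinase, was at 7.92, 5.30, 4.80 and 5.38 CPM in wild type and at 16.9, 7.99, 14.3 and 10.1 CPM in knockout. Its lowest knockout library lay just above its highest wild-type library, where 8.34% of all genes tested had genotypes that did not overlap. The log2 difference was 1.07 ± 0.25 (SE, edgeR adjusted p = 0.135). Without wild-type replicate 1 Pim3 passed (edgeR adjusted p = 0.0205), as did 9.46% of 13874 genes. With all 8 libraries Pim3 passed in DESeq2 (adjusted p = 0.00376) and in limma-voom with library weights (0.0417), and Osmr in DESeq2 (0.0345). These fits passed 526 of 9932 and 549 of 13617 genes. Leaving out both wild-type replicate 1 and knockout replicate 2, Sh2b1, Mcl1 and Ddc passed too (edgeR adjusted p = 0.0417, 0.0391 and 0.00895), among 1296 genes that passed. The survival gene Mcl1 had 0.26 ± 0.11 (0.239).

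Of 17 genes tied to pregnancy or lactogens in islets, 8 were positive and 9 negative, with a median of -0.042. Cdkn1b, the cell cycle inhibitor p27, had a log2 value of 0.34 ± 0.11 (SE, adjusted p from edgeR = 0.174) and Men1, the menin gene that prolactin lowers in beta cells, one of -0.20 ± 0.11 (0.327). Serotonin metabolism had 8 positive values of 13. Qdpr, which recycles the hydroxylase cofactor, had 0.48 ± 0.20 (0.247) and Ddc, which makes serotonin from its precursor, -0.36 ± 0.16 (0.265). Qdpr was at 31.9 CPM in knockout replicate 2 and at 19.5 to 20.7 CPM in the other knockout libraries, and without that library its value was 0.27 (edgeR adjusted p = 0.411). Of 14 serotonin receptors only Htr2b, which drives beta-cell growth in pregnancy, had enough counts: 0.56 ± 0.075 CPM in wild type against 0.88 ± 0.18 CPM in the knockout (edgeR adjusted p = 0.239). Its groups did not overlap, as was so for 8.34% of all genes tested. In the axis of insulin-like growth factors 9 of 13 values were positive, with a median of 0.16. Igf2r, which clears IGF2, had -0.28 ± 0.10 (0.199) and the protease gene Pappa, which frees IGF from binding proteins, 1.19 ± 0.45 (0.213). Pappa had 41 counts in knockout replicate 4 and 9 to 18 in the other knockout libraries, and without that library its value was 0.72 (edgeR adjusted p = 0.466). Igfbp4, an IGF-binding protein named after its value was seen, lay farthest from 0 at 2.65 ± 1.08 (0.262). Knockout replicate 2, the library with hepatocyte RNA, held 60.8 CPM of it, the other knockout libraries 3.05 to 6.43 CPM and wild type 2.69 to 3.44 CPM. Igf2r passed without wild-type replicate 1 (edgeR adjusted p = 0.0353), as did 9.46% of 13874 genes.

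**Figure D5:**
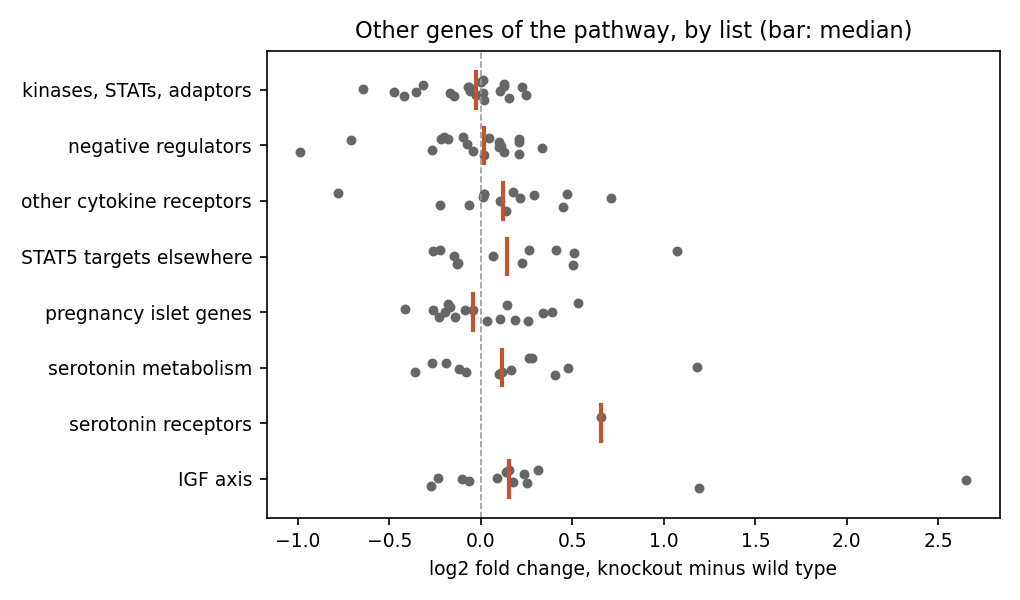
Log2 fold change, knockout minus wild type, of each tested gene (points) in 8 lists of the pathway, with the list median as a bar. Medians lie between -0.042 and 0.16 except for the single serotonin receptor, and points fall on both sides of 0 in the other 7 lists.

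The genes whose levels ran most like each member were sought among 10249 genes over the 8 libraries, so the best of them have a high Pearson r by the search alone. For Prlr they were Trappc11 (0.98), Irgq (0.94) and Creb3 (0.94), and for Cish Pitrm1 (0.94), Ube2z (0.93) and Cdca4 (0.92). For Socs2 they were Zfp719 (0.96), Irf9 (0.94) and Eif3k (0.93), and for Tph2 Jak1 (0.98), Hba-a2 (0.90) and Serinc5 (0.89). Jak1 encodes a kinase of the same family as JAK2. For Ghr they were Rcbtb2, Dpm1-adnp and Grsf1 (0.97 to 0.98), for Stat5a Wash1, Mbd3 and Zfp92 (0.97 to 0.99), for Stat5b Unc93b1 and Maged1 (0.98 to 0.99), and for Igf1 C1rl, Lap3 and Slc38a3 (0.98 to 0.99). On the authors' RPM scale r fell to 0.29 to 0.69 for the genes like Cish and to 0.56 to 0.75 for those like Socs2. For Tph2, a gene of few counts, r on that scale was 0.76 for Jak1, 0.94 for Hba-a2 and 0.87 for Serinc5.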

How the data were processed

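The series holds RNA sequencing of 8 islet libraries, 4 wild type and 4 knockout, grouped by their titles. Total RNA with a RIN of at least 8.5 was made into SeqPlex libraries, per the labels' protocols. STAR 2.4.1, Partek and the mouse build mm9 are named, per the submitters' processing notes. The sources used here do not give what each tool did, nor the annotation, strand or counting rule. One deposited table has the estimated count of every gene by library, and these were rounded to whole numbers before testing (9.98 to 12.4% of values were not whole within 0.01). The other table holds RPM made by the authors with an offset of 0.0001, and was used as an alternative scale.

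Counts of all 24469 genes were fitted in edgeR 4.0.16 (R 4.3.3) after TMM scaling and filterByExpr. Genotype was the single term of the robust quasi-likelihood fit, knockout was tested against wild type by F-test, and p-values of the 13617 genes that passed the filter were adjusted by Benjamini-Hochberg with 0.05 as the threshold. CPM are counts per 1000000 of the TMM-scaled library. The fit was tested on simulated counts. The members, the gene lists and the rule for named genes were chosen with earlier results of these data known. Of each pathway list the 2 genes of smallest p are named where none passed, and for each member the 3 genes with the highest Pearson r over the libraries, of which 1 is not reported here. Relations between members used log2 of CPM plus 0.1. Exon lengths came from GENCODE M21 of GRCm38 and promoters from RefSeq of GRCm38.p6. Replicates with the same number were not treated as pairs: the correlation of their deviations from the group means was 0.038 for number 1 and 0.147 to 0.21 for the others. Alternatives in DESeq2 1.42.0, limma 3.58.1 and edgeR are given at the end. The STAT5 sum, the low Xist libraries alone, the fits that leave out wild-type replicate 1 or knockout replicate 2 together with another change, and the relation of Igf1 to acinar markers were chosen after seeing the data. No pair of libraries agreed within sampling noise. An interval made from pooled counts covers counting error only, and may be too narrow even for that, since amplified reads are not independent molecules.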

Additional observations from a re-analysis of the deposited data

Results flagged for a closer look

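In groups of 4, a library was taken to stand apart when its gap to the nearest library, divided by the range of the group, was above Dixon's 95% critical value. Of 42 groups examined, over the 9 genes and 12 marker lists, 3 held such a library, where chance gives about 1 in 20. The summed hepatocyte markers were at 6347 CPM in knockout replicate 2 and at 24.5 CPM in the next knockout library. The summed adipocyte markers were at 180.2 CPM in knockout replicate 2 and at 13.7 CPM in the next, with Car3 the marker that held most of them. The summed mast cell markers were at 8.29 CPM in knockout replicate 1 and at 4.37 CPM in the next. None of the 9 genes had such a library in either genotype.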

How the results depend on the processing

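The count of 2 genes past FDR 0.05 became 48 with no composition factor, 526 with DESeq2, 549 with limma-voom and library weights, and 5 with limma-trend on RPM plus 0.1. It was 1296 without wild-type replicate 1 and knockout replicate 2, 415 without wild-type replicate 1 in a fit that held the acinar share, and from 2 to 1313 over the fits that omit a single library; the causes were not tested. Cish, Ghr, Stat5a, Stat5b and Igf1 kept their direction in every alternative run (30 or 31 each). Among these runs, the change of the FDR threshold to 0.10 used the main fit and could not alter a direction. The run without robust estimation had the same log2 fold changes as the main fit. Library sizes without acinar and hormone genes gave the same values as the main fit, since the TMM factors were computed afterwards and take up such a change. That run does not test the part of exocrine or hormone RNA. Socs2 turned to 0.11 with the hepatocyte share as a covariate, 0.050 in the low Xist libraries alone and 0.15 without wild-type replicate 1 and knockout replicate 2. The hepatocyte covariate rests mainly on knockout replicate 2. With each library left out the log2 fold changes were -0.44 to 0.046 for Prlr, -0.30 to 0.12 for Socs2 and -0.69 to 0.44 for Tph2. No composition factor moved the median of all genes to -0.11 and limma-trend on RPM plus 0.1 to -0.13. The genes with an unadjusted p under 0.05 numbered 2545 in the main fit. They numbered 721 with no composition factor and 820 with limma-trend on RPM plus 0.1. With the replicate number as a block 2 genes passed and no member did (Ghr 0.40, edgeR adjusted p = 0.244); replicates 2, 3 and 4 matched best across genotypes with their own number and replicate 1 did not. With each library left out r ran from 0.73 to 0.89 for Prlr and Cish, 0.58 to 0.85 for Prlr and Socs2, 0.75 to 0.92 for Prlr and Tph1, 0.72 to 0.94 for Cish and Socs2, 0.59 to 0.84 for Cish and Tph1 and 0.69 to 0.90 for Ghr and Igf1. On the RPM scale r was 0.71 for Prlr and Cish (exact adjusted p = 0.0560) and 0.41 for Ghr and Igf1 (0.307). Depth limits Tph1 and most serotonin receptors.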
